A study of Zea mays with 12 samples.

Results

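In maize endosperm, 136 probe sets without an annotated gene differed between the reciprocal hybrids of the inbreds B73 and Mo17 while the inbreds themselves had nearly equal signals. Of these 136, 89 were higher in B73xMo17 and 47 were higher in Mo17xB73. They were chosen from 17734 probe sets by their measured signals, after the 12 arrays had been scaled to a common trimmed mean (2% left out at each end). A member had a mean of at least 50 over the 12 arrays, B73 and Mo17 means within 25% of each other (the higher at most 25% above the lower), hybrid means at least 1.5-fold apart, and all 3 arrays of one hybrid above all 3 of the other. Control probe sets, probe sets with a gene in the platform annotation, and any probe set whose 6 hybrid arrays all lay above the 6 inbred arrays were to be left out, and the last condition removed 0. The differences between the hybrids and between the inbreds therefore chose the members, and for both of them the values below are a description and not a test.

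The study profiled endosperm 19 days after pollination from field-grown plants of the genotypes B73, Mo17, B73xMo17 and Mo17xB73, with 3 replicates of each. A replicate number stood for 1 of 3 crossing dates in a single season, and all 4 genotypes of a number were crossed within a short time of each other. Each sample pooled 6 endosperms from each of 6 ears, 36 endosperms in all, so the spread between replicates is that between pools and not between kernels. RNA was hybridised to single-colour Affymetrix maize arrays, 1 array per sample. By the usual convention the parent written first is the female, but the labels do not say so, and the hybrids are named here as labelled.

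Endosperm is the nutritive tissue of the kernel, and it carries more copies of the maternal genome than of the paternal one. Reciprocal hybrids thus have the same alleles in opposite doses, and an allele that is expressed from only one parent, as imprinted genes are, can be active in only one of the crosses. Where both inbreds express a transcript equally, any fixed weighting of their levels gives the same level in both hybrids. The members are probe sets whose hybrids did not share that level, and because none of them has an annotated gene, they are given by probe set name and nothing is said of what they encode.

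Of the 9389 unannotated probe sets with a mean of at least 50, 1185 met the conditions on the hybrids, and 1049 of those had inbreds more than 25% apart. In 1005 of the 1049 the hybrid whose name begins with the inbred of higher signal was itself the higher hybrid, and in 44 it was the lower. The 136 members were the remaining 11.5% of the 1185, and 1.45% of the 9389. Among the 4190 probe sets with inbreds within that limit, 3.25% were members, and among those with inbreds past it 20.2% met the same conditions on the hybrids.

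The differences between the hybrids were mostly under 2-fold. The median ratio of the higher to the lower hybrid mean was 1.65, 51 members were under 1.6-fold, 21 were over 2-fold and 4 were over 3-fold. The largest ratio was 6.70 on the Mo17xB73 side and 3.02 on the B73xMo17 side. Just inside the 1.5-fold limit lay Zm.5759.1.A1_at at 1.5001 and Zm.16413.2.A1_at at 1.5002, and just outside lay Zm.13056.1.A1_at at 1.4999 and Zm.12065.1.S1_at at 1.4998. At the inbred limit, Zm.3077.1.A1_a_at was inside at 1.2496 and Zm.1772.1.A1_at at 1.2446, while ZmAffx.1500.1.S1_at at 1.2502 and Zm.5484.1.A1_at at 1.2553 fell outside. These neighbours cannot be told apart by their values.

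The inbreds of the members were close, but not shown to be equal. Their median ratio was 1.13, with 46 members under 1.1-fold and 33 over 1.2-fold. In 77 of the 89 members higher in B73xMo17 the B73 mean was above the Mo17 mean, and in 33 of the 47 higher in Mo17xB73 the Mo17 mean was the higher. Thus what difference the inbreds had mostly ran the same way as that between the hybrids named after them. The 3 arrays of each inbred did not overlap in 22 members, where 57.9% of all probe sets tested had inbreds that did not overlap. In limma's fit of all 4 genotypes on log2(signal + 10.6), the inbred difference was called in 2 members, Zm.2196.1.A1_at and Zm.5257.1.A1_at, both higher in B73, against 47.9% of the 11747 probe sets tested (23.5% higher in B73 and 24.5% higher in Mo17), and in 10 members when the crossing date was a block. The rule fixed both shares. The 95% interval of the inbred difference had a median half-width of 0.36 log2 units. It reached a 1.5-fold difference (0.58 log2 units) in 37 members, and in 8 it reached the member's own difference between hybrids.

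The members covered a wide range of brightness, with means over the 12 arrays from 50.7 to 5246. Their median mean signal was 188, against 307 over the 9389 probe sets they came from, 36 were under 100 and 20 were over 1000. All 136 passed the filter that left out the dimmest 33.3% of probe sets. The median standard error of a difference of 2 genotypes was 0.17 log2 units for the members and 0.15 for all probe sets tested. With 3 arrays per genotype, the number of arrays limits the precision.

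**Figure D1:**
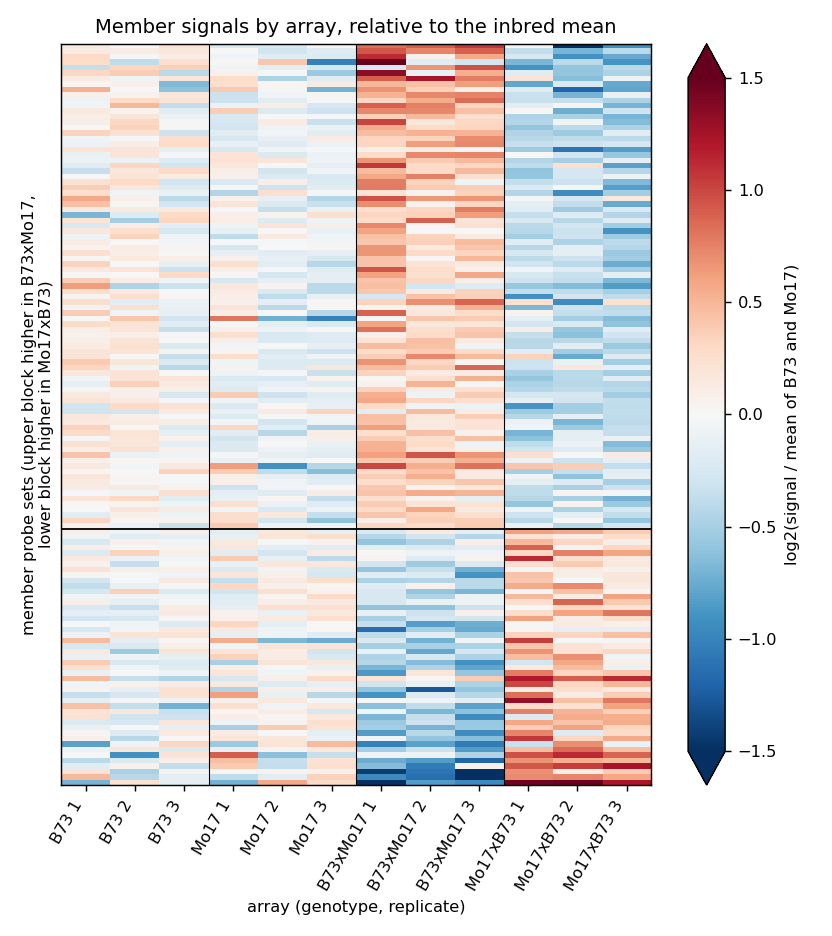
Signal of each of the 136 members (1 line each, ordered by ratio within direction) in each of the 12 arrays, as log2 of the signal over the mean of B73 and Mo17, with the colour scale ending at 1.5 units either way. The upper block holds the 89 members higher in B73xMo17 and the lower block the 47 higher in Mo17xB73. The hybrid columns mostly carry opposite colours and the inbred columns are mostly paler. The rule kept the hybrids apart and the inbred means close, but it did not set the side of the inbred mean on which a hybrid lies.

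The largest difference of all was that of Zm.19144.1.A1_at, higher in Mo17xB73. Its scaled signals were 5.45, 30.5 and 28.0 in B73xMo17, 150.2, 152 and 127 in Mo17xB73, 33.7, 63.5 and 49.2 in B73 and 33.4, 80.6 and 66.3 in Mo17. All 3 Mo17xB73 arrays were above every inbred array and all 3 B73xMo17 arrays were below every one, so the hybrids lay on opposite sides of both parents. The ratio of 6.70 rests on a dim denominator, since the first B73xMo17 array was far below the other two, and on the log2(signal + 10.6) scale the difference was -2.38 (SE 0.34, n = 3 per genotype), or -1.95 without that array.

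Zm.7848.1.A1_at gave 179.7, 160.1 and 99.8 in B73xMo17, 569.9, 580.1 and 521 in Mo17xB73, 491, 263 and 319 in B73 and 268, 310.0 and 445 in Mo17. Here too the inbreds lay between the hybrids without overlap, at nearly the same mean (357 ± 119 and 341 ± 92.7, SD, n = 3), and the hybrids differed 3.8-fold. In Zm.10091.1.A1_at the signals were 56.1, 70.4 and 47.4 in B73xMo17, 242, 163 and 197 in Mo17xB73, 173, 108 and 156 in B73 and 153, 156 and 158 in Mo17. Its B73xMo17 arrays were below all inbred arrays, while its Mo17xB73 arrays overlapped with the highest B73 array, so most of the 3.46-fold difference lay on the low side.

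Zm.4583.1.A1_at showed the other form. Its signals were 49.0, 37.2 and 80.5 in B73xMo17, 147, 158 and 182 in Mo17xB73, 68.7, 80.9 and 59.7 in B73 and 101, 59.9 and 92.1 in Mo17. The Mo17xB73 arrays were above all others, and the B73xMo17 arrays spread from below the inbreds into their range, with the hybrid means 2.92-fold apart. Zm.10210.1.A1_at, at 2.79-fold, gave 385, 353 and 339 in Mo17xB73 and 145, 135 and 105 in B73xMo17, and the 6 inbred arrays fell in the gap between them. The inbreds of this probe set spread from 183 to 329.9, both in replicate 1, so their 1.23-fold ratio hides a wide gap on one crossing date.

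The other members with the largest ratios on the Mo17xB73 side were Zm.12308.1.S1_at (2.26-fold), Zm.10219.3.A1_at (2.22-fold), Zm.6638.1.A1_at (2.16-fold), Zm.1717.1.S1_at (2.11-fold) and Zm.1449.2.S1_a_at (2.05-fold). Zm.1449.2.S1_a_at had the closest inbreds of these, with means of 2574 ± 306 and 2561 ± 235 (SD, n = 3), and signals of 4279, 2244 and 3122 in Mo17xB73 against 1432, 1920.2 and 1343 in B73xMo17. The hybrids were separate overall but lay close together on the second crossing date.

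On the B73xMo17 side the largest ratio was that of Zm.17172.1.A1_at. Its signals were 1592, 1684 and 1881 in B73xMo17, 918, 311 and 477 in Mo17xB73, 995, 903 and 1042 in B73 and 769, 767 and 920.0 in Mo17. All 3 B73xMo17 arrays were above every inbred array, while Mo17xB73 had one array among the inbreds and the other two far below them. The hybrid means were 1719 ± 148 and 569 ± 314 (SD, n = 3), a 3.02-fold ratio, with an inbred ratio of 1.197.

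Zm.2196.1.A1_at had tight replicates. It gave 1687, 1471 and 1638 in B73xMo17, 684, 544 and 666 in Mo17xB73, 965, 952 and 995 in B73 and 883, 727 and 779 in Mo17. The order was the same on every date, with B73xMo17 above B73, B73 above Mo17 and Mo17 above Mo17xB73, and no genotype overlapped with another. The hybrids differed 2.53-fold, by 1.33 log2 units (SE 0.11), and the inbreds by 0.29 (SE 0.11).

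Zm.14994.1.A1_at differed less, at 2.04-fold, with 948, 1094 and 1113 in B73xMo17 and 524, 408 and 613 in Mo17xB73. Its Mo17xB73 arrays overlapped with the Mo17 arrays, so only the B73xMo17 arrays stood clear of the inbreds. ZmAffx.685.1.A1_at gave 286, 362 and 261 in B73xMo17, again above every inbred array, and 175, 99.1 and 145 in Mo17xB73, whose range overlapped with both inbreds.

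In some members the ratio rested on 1 array. Zm.2959.1.S1_at gave 159.5, 50.4 and 46.5 in B73xMo17 and 35.0, 42.4 and 30.5 in Mo17xB73. Its 2.38-fold ratio rests on the first B73xMo17 array, and without that array the difference was 0.35 in place of 0.86 log2 units. ZmAffx.1455.1.S1_at (2.17-fold) likewise went from 0.86 to 0.53 without its first B73xMo17 array. The remaining 4 of the largest were ZmAffx.1164.1.A1_at (2.39-fold), Zm.2012.1.S1_at (2.25-fold), Zm.9914.1.A1_at (2.12-fold) and Zm.3663.1.A1_at (2.07-fold).

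**Figure D2:**
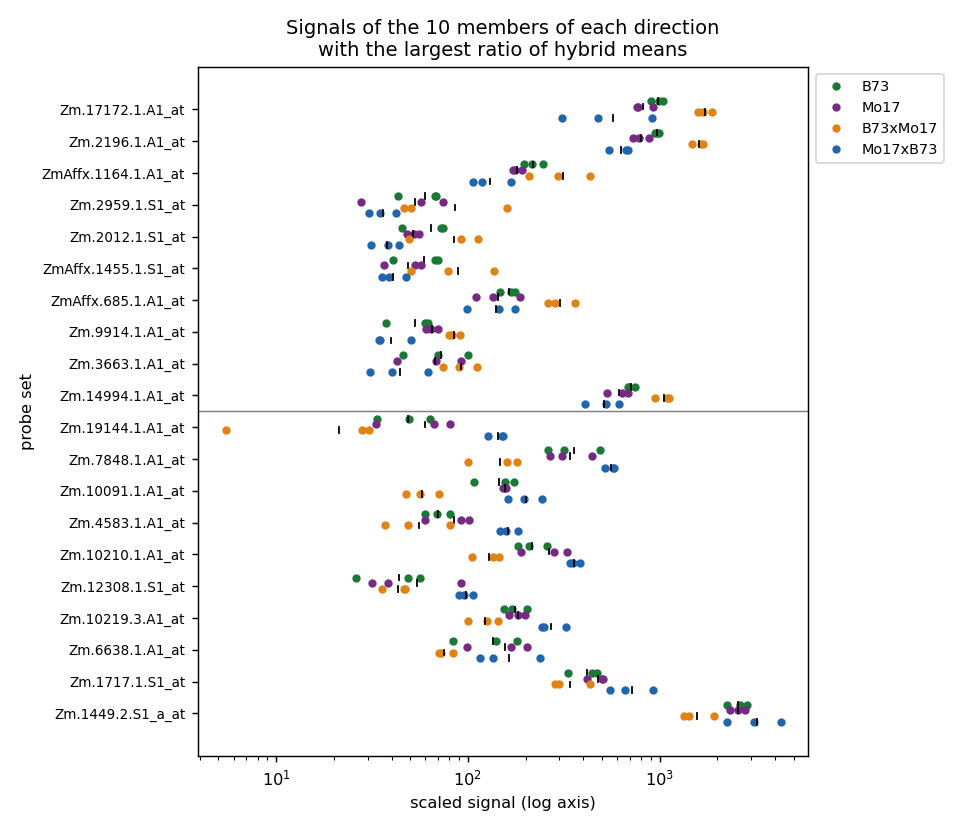
Scaled signal (log axis) of the 10 members of each direction with the largest ratio of hybrid means, with 1 point per array, coloured by genotype, and a short black line at each genotype's mean. B73xMo17 is the highest genotype in the upper 10 and Mo17xB73 in the lower 10, up to a ratio of 6.70 for Zm.19144.1.A1_at, while the inbred means lie within 25% of each other.

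A fit across all probe sets called the difference between the hybrids in 123 of the 136 members, 79 higher in B73xMo17 and 44 higher in Mo17xB73, where 20.1% of all probe sets tested were called. That share was set by the choice of members. On each of the 3 crossing dates every member had its same-numbered hybrids in the order the rule required, but the size varied. In 43 members the hybrids were over 1.5-fold apart on all 3 dates. Among the members higher in B73xMo17 the median difference was 0.79, 0.66 and 0.74 log2 units on dates 1, 2 and 3. The inbred difference had the same sign on all 3 dates in 53 members. It was over 1.5-fold on at least 1 date in 26 and over 2-fold on at least 1 date in 2. Because the rule kept the hybrids from overlapping and the inbred means close, the hybrid and inbred counts cannot be compared for steadiness. The matching shares over all probe sets were not computed.

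The difference between the hybrids was split about evenly between a hybrid above the inbreds and a hybrid below them. In the 89 members higher in B73xMo17, the B73xMo17 mean was a median 0.38 log2 units above the inbred mean and the Mo17xB73 mean a median 0.36 below it (-0.36). In the 47 higher in Mo17xB73 the medians were 0.41 for Mo17xB73 and -0.42 for B73xMo17. The higher hybrid was farther from the inbred mean than the lower one in 47 of the 89 and in 25 of the 47. In 4 members both hybrids lay on one side of the inbred mean, above it in Zm.17659.1.A1_at, Zm.15177.1.A1_at and Zm.11757.1.A1_at and below it in Zm.10169.2.S1_x_at.

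Array by array, the B73xMo17 side held 27 members whose 3 B73xMo17 arrays alone stood clear above all 6 inbred arrays, 19 whose Mo17xB73 arrays alone stood clear below, 7 with both and 36 with neither. Over all probe sets tested, 1.95% had all B73xMo17 arrays above all inbred arrays and 1.83% had all Mo17xB73 arrays below them. On the Mo17xB73 side the corresponding counts were 12 above only, 13 below only, 5 with both and 17 with neither. The backgrounds for that side were 1.14% with Mo17xB73 above all inbred arrays and 1.51% with B73xMo17 below. Since the members were chosen for hybrids that did not overlap, as they did not in 35.1% of all probe sets tested, these shares are descriptions.

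**Figure D3:**
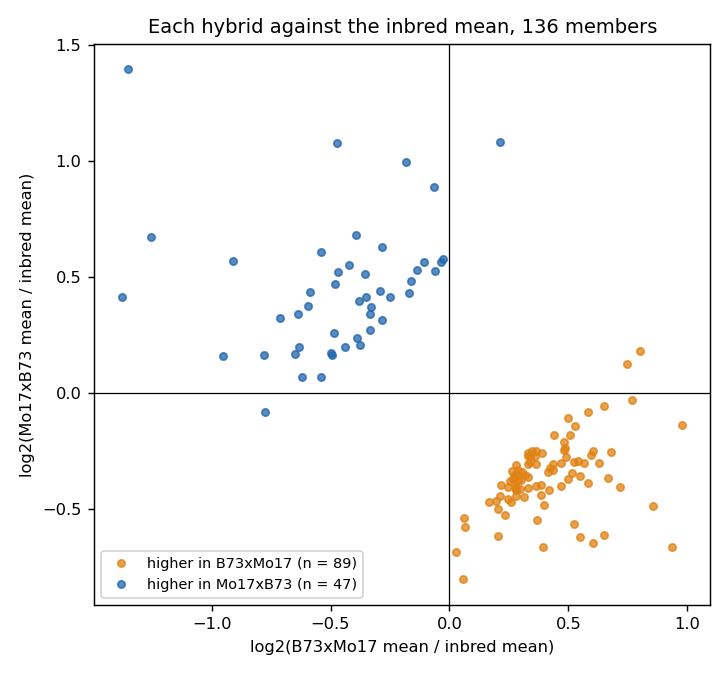
Each point is 1 of the 136 members, placed by log2 of its B73xMo17 mean (horizontal) and of its Mo17xB73 mean (vertical) over the mean of the inbreds, in log2 units. All but 4 points lie in the 2 quadrants where one hybrid is above the inbred mean and the other below, with median distances of 0.38 and -0.36 for the 89 members higher in B73xMo17.

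The contrast of both hybrids with both inbreds was not used to choose the members, apart from the exclusion on the upper side that removed 0, and it can be tested. The fit called 2 members higher and 1 lower in the hybrids (2.21% of 136, limma with Benjamini-Hochberg adjustment over all probe sets tested), while 4.21% of all 11747 were called, 4.02% higher and 0.187% lower. At an unadjusted p under 0.05, 15 members (11%) and 13% of all probe sets passed. The median contrast was 0.02 log2 units in the members and 0.02 over all probe sets tested, with members ranging from -0.43 to 0.65. The members' share of calls was thus not above that of all probe sets tested, but most of those were not limited to close inbreds. On log2 signals, unequal inbreds average lower than on linear ones, so a probe set can be called with both hybrids between its inbreds. The endosperm marker o2 was such a call (limma adjusted p = 1.2e-05). Its means were 3906.7 in B73, 177.87 in Mo17, 2944.5 in B73xMo17 and 1651.2 in Mo17xB73. The share of calls among all probe sets with close inbreds was not tested.

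Zm.11757.1.A1_at was the most changed of the 3. Its signals were 227, 201 and 255 in B73xMo17, 453, 369 and 426 in Mo17xB73, 272, 154 and 143 in B73 and 163, 208 and 239 in Mo17. Every Mo17xB73 array was above all other arrays, while B73xMo17 lay within the range of the inbreds, and the hybrids together were 0.65 log2 units above the inbreds (SE 0.14, limma adjusted p = 0.0158). The call was lost when the arrays were scaled to a common median (adjusted p = 0.0511) and without either B73 replicate 2 or B73xMo17 replicate 3 (0.0546 and 0.0515).

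In Zm.17659.1.A1_at it was B73xMo17 that stood apart. It gave 372, 468 and 384 in B73xMo17, 287, 244 and 264 in Mo17xB73, 326, 226 and 234 in B73 and 237, 221 and 215 in Mo17. Its B73xMo17 arrays were above all others and its Mo17xB73 arrays overlapped with B73 alone, for a contrast of 0.43 (SE 0.10, limma adjusted p = 0.0227). Zm.10169.2.S1_x_at, the only member called lower, gave 2687, 4214 and 3526 in B73xMo17, 6044, 5435 and 5389.7 in Mo17xB73, 4951, 5759 and 6589 in B73 and 6534, 5742 and 6084 in Mo17. All 3 B73xMo17 arrays were below the other 9, which overlapped, and the contrast was -0.43 (SE 0.099, limma adjusted p = 0.0193). The call of Zm.17659.1.A1_at was lost under common median scaling (adjusted p = 0.0998) and without any 1 of 7 arrays (adjusted p up to 0.0781), and that of Zm.10169.2.S1_x_at with the deposited signals (0.102), without the trend in eBayes (0.058) and without any 1 of 3 arrays (up to 0.0631).

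Crossing date, the other comparison that the rule did not use directly, was called in 1 member of 136 by limma's F test over the 3 dates, against 2.4% of all probe sets tested. At an unadjusted p under 0.05, 36 members (26.5%) and 20.6% of all probe sets passed. The member called was Zm.5462.1.A1_at (adjusted p = 0.0317), with signals of 449.6, 322 and 339 in B73xMo17, 286, 202 and 228 in Mo17xB73, 373, 296 and 252 in B73 and 366, 260.0 and 209 in Mo17. Replicate 1 was the highest in every genotype. The call was lost with no dim filter, without the trend in eBayes, and without any 1 of Mo17 replicates 1 and 3, B73 replicates 1 and 3 and B73xMo17 replicate 2, with 0 members called in each case. Scaling to a common median called 7 members and 908 probe sets in place of 282, and leaving out single arrays called 53 to 183 probe sets. On every date B73xMo17 was the highest genotype of this probe set and its hybrids kept their order.

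Probe sets of the same array can share a cluster number, the first number of their name, taken here as one group of related sequences in the array's design. Of the members, 28 shared a cluster with tested probe sets that were not members, 56 of these in all. The other 108 did not, and 2 of them shared a cluster with each other. Of these 56, 43 differed between the hybrids in the direction of the member, 18 were called in that direction, 3 were called in the opposite one and 35 were not called. The share called was 37.5%, where 20.1% of all probe sets tested were called. The 56 are not separate observations. The cluster of Zm.14497.13.A1_x_at alone held 12 of them, and others, such as Zm.7008.1.A1_s_at, differed from their member's name only in its ending. In 29 of the 56 the inbreds were within 25%, where 4190 of the 9389 probe sets the members came from had such inbreds. In 8 of the 56 they were over 2-fold apart, most of these in the cluster of Zm.14497.13.A1_x_at. A few members thus had relatives that did differ between the inbreds. One such member was Zm.10169.2.S1_x_at, called lower in the contrast of both hybrids together with both inbreds. Its relative Zm.10169.2.S1_at had means of 143 in B73, 2236 in Mo17, 584 in B73xMo17 and 1554 in Mo17xB73. The hybrids of that relative were called in the member's direction. Another relative, Zm.10169.1.A1_at, had inbreds 1.82-fold apart and was not called between the hybrids.

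ZmAffx.755.1.S1_at and ZmAffx.755.1.A1_s_at were the only 2 members that shared a cluster. The first gave 220.0, 168 and 166 in B73xMo17 and 111, 129.7 and 72.6 in Mo17xB73, and the second gave 2904, 2244 and 1849.6 and 1451, 1690.5 and 1264. Both were higher in B73xMo17, 1.77-fold and 1.59-fold, and in both the second Mo17xB73 array was the highest of its genotype. The relatives of Zm.10219.3.A1_at were not called: Zm.10219.1.S1_at differed by -0.21 log2 units (limma adjusted p = 0.228), Zm.10219.2.S1_a_at by -0.04 (0.878) and Zm.10219.3.A1_a_at by -0.26 (0.084). The large ratio of that member was thus not seen across its cluster.

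The cluster of Zm.3077.1.A1_a_at also held an annotated probe set, that of CaM1 (calmodulin, a calcium-binding regulator), which met the same numeric rule. The member gave 1472, 1040.0 and 1164 in Mo17xB73 and 685, 813 and 800.2 in B73xMo17, and the CaM1 probe set Zm.3077.2.S1_x_at gave 1908, 1327 and 1676 and 794, 1115 and 992. Both were higher in Mo17xB73 on all 3 dates, 1.6-fold and 1.69-fold. The other tested probe set of that cluster, Zm.3077.1.A1_at, gave 543, 472 and 426 in Mo17xB73 and 451, 519 and 475 in B73xMo17. Its hybrids overlapped and differed by 0.01 log2 units (limma adjusted p = 0.968), and its inbreds were 1.55-fold apart. Names ending in x_at or s_at mark probe sets that can bind transcripts of related genes, so the members among them, 10 of 136 (7.35%, against 6.03% of the 9389), may sum several transcripts.

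Probe set names beginning with ZmAffx were common among the members. They made up 33 of the 136 (24.3%), where they were 6.07% of the 9389 probe sets the members were chosen from. They were mostly on one side, with 29 of the 89 members higher in B73xMo17 (32.6%) and 4 of the 47 higher in Mo17xB73 (8.51%). What the prefix stands for is not given in the sources used here.

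Within these names the members gathered at high numbers. Of 128 tested unannotated ZmAffx probe sets numbered 1200 or above, a limit chosen after the values were seen, 18 were members (14.1%), all 18 higher in B73xMo17. Of 644 with lower numbers 15 were members (2.33%), and of 9983 without the prefix 103 were (1.03%). The high numbers as a whole had a median difference between hybrids of 0.44 log2 units, with 42.2% called higher in B73xMo17 where 10.8% of all probe sets tested were, and 0.781% called lower where 9.3% were. Their median inbred difference was 0.23, B73 being higher, and their contrast of both hybrids with both inbreds had a median of 0.00. In the lower numbers the median difference between hybrids was 0.02. These shares include the values that chose the members and are given without a test.

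The 18 were often bright, with a median mean signal of 843 and 8 over 1000. ZmAffx.1460.1.S1_at, the brightest member higher in B73xMo17, gave 7571, 6300.3 and 5995 in B73xMo17, 4646, 4153 and 3901 in Mo17xB73, 5779.6, 5613 and 5003 in B73 and 4852, 4496 and 4574 in Mo17. Its genotypes ran in the same order on every date, with B73xMo17 highest, then B73, Mo17 and Mo17xB73, and its hybrids differed 1.56-fold. ZmAffx.1498.1.S1_s_at had the next brightest mean on that side and gave 6682, 4965 and 4994 in B73xMo17 and 3606, 3808 and 2896 in Mo17xB73, a 1.61-fold ratio. Its B73xMo17 arrays overlapped with the B73 arrays, and its Mo17xB73 arrays with the lowest Mo17 array only.

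Within genotypes the third replicate was the lowest in 16 of these 18 members in B73, in 12 in B73xMo17, in 15 in Mo17xB73 and in 7 in Mo17, and it was the highest in 0, 0, 0 and 2. In the other 71 members higher in B73xMo17 it was the lowest in 36, 19, 22 and 29, with the genotypes in that order. In B73xMo17 the first replicate was the highest in 16 of the 18. The medians there were 0.55, 0.30 and 0.16 log2 units over the inbred mean in replicates 1, 2 and 3. In B73, Mo17 and Mo17xB73 the second replicate was most often the highest, in 12, 12 and 13 of the 18. Of the 128 high-numbered probe sets, 35.9% passed the test of crossing date at an unadjusted p under 0.05, where 20.6% of all probe sets did. After adjustment 6 of the 128 were called for crossing date, and 0 of the 18 members, where 2.4% of all probe sets tested were called. With only 18 members, a count of 0 says little beside that share. The part of an array or sample property in this was not tested. Under all 4 ways of scaling the arrays, 5 of the 18 met the rule.

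**Figure D4:**
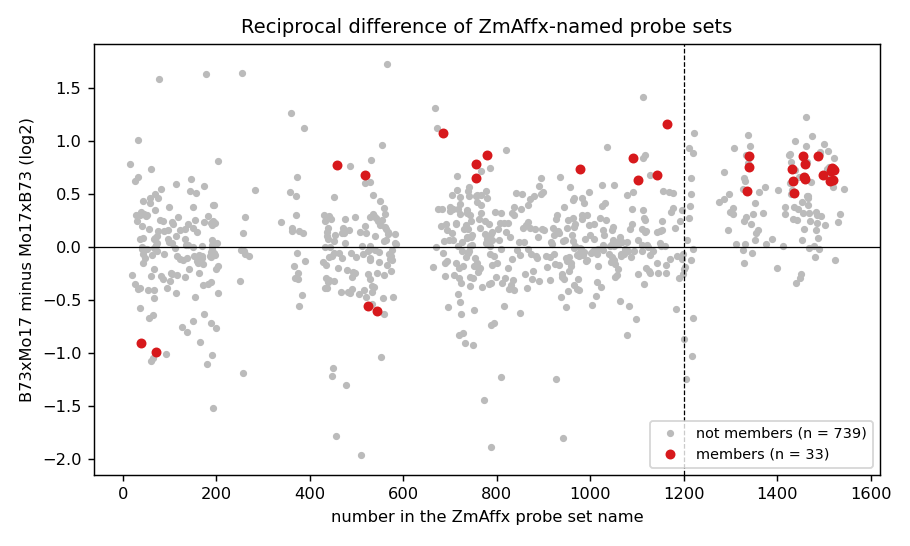
Difference between the hybrids (B73xMo17 minus Mo17xB73, log2 units) of the tested unannotated probe sets whose names begin with ZmAffx, against the number in the name, with the 33 members in red and a dashed line at 1200. All 18 members to the right of the line are above 0, as are most of the other probe sets there, whose median with the members is 0.44.

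Annotated probe sets met the same numeric conditions at a like share, 12 of 874 with a mean of at least 50 (1.37%, against 1.45%). Of the 12, 4 were higher in B73xMo17 and 8 in Mo17xB73. The largest ratio was that of xet1, named for a xyloglucan endotransglycosylase of cell wall growth, with 550.2, 78.2 and 109 in Mo17xB73 and 42.4, 38 and 17 in B73xMo17. Its 7.57-fold ratio rests mostly on the first Mo17xB73 array. The next were gst30, a glutathione transferase (2.53-fold, Mo17xB73 higher), obf3.2, a bZIP DNA-binding factor (2.24-fold, B73xMo17 higher), ij1, the iojap gene of chloroplast development (2.21-fold, B73xMo17 higher), frk2, a fructokinase (2.18-fold, Mo17xB73 higher), and betl3, a gene of the basal transfer layer (1.99-fold, Mo17xB73 higher).

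Markers of cell types differed between the hybrids in the same arrays. All 9 markers of the basal transfer layer, the cells that take up nutrients at the kernel base, were called higher in Mo17xB73 (median -1.87 log2 units). Their summed signal was 10141 to 11018 in Mo17xB73 and 3009 to 4215 in B73xMo17, but it also differed between the inbreds, with 7525 to 10361 in Mo17 and 2338 to 3320 in B73. Of 9 embryo markers 5 were tested and 1, glb1, was called, higher in Mo17xB73. The embryo sum was 1798 to 2393 in Mo17xB73, 717 to 1835 in B73xMo17, 1577 to 1884 in Mo17 and 532 to 1120 in B73, and lec1, with a mean signal of 0.81, was near 0. Among the transfer layer markers, betl3 and meg6 had inbreds within 25% (B73 over Mo17 ratios of 0.82 and 0.98), and their differences between hybrids were -0.95 and -0.43 log2 units. The part of these cell types in the members' differences was not tested.

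Of the 6 aleurone markers, 1 was called higher in B73xMo17 and 2 in Mo17xB73, and of the 2 green-tissue markers tested 0 were called. The starchy endosperm markers, zeins and their regulators, summed to between 59875 and 109355 in every array, so the defining markers of the labelled tissue were present. Their sum was 98216 to 101288 in B73xMo17 and 79347 to 90385 in Mo17xB73. It also differed between the inbreds, with 98198 to 109355 in B73 and 59875 to 80602 in Mo17. Of these 11 markers, 2 were called higher in B73xMo17 and 1 in Mo17xB73. Of 6 genes looked up as imprinted or candidates, mez1 and fie1, both Polycomb group genes, were called higher in B73xMo17 (0.76 and 0.67 log2 units). The others, fie2, tub3, tub4 and tub5, were not called. Whether the tub genes, which are beta tubulin genes, belong on such a list was not checked. Neither mez1 nor fie1 resembled the members in its inbreds, whose B73 over Mo17 ratios were 1.62 and 1.48. In bulk tissue, fewer cells of a type and less RNA per cell cannot be told apart.

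Which probe sets are members depends on how the arrays are brought to one scale. As deposited, the arrays had trimmed means from 304 to 458, and each Mo17xB73 array (377 to 416.1) was brighter than each B73xMo17 array (339.8 to 353). Without scaling, 123 probe sets met the rule and 49 of them were among the 136, which is 36.0% of the members and 39.8% of the 123. The split turned from 65.4% to 39.8% higher in B73xMo17, and over all probe sets tested the share of called differences that were higher in B73xMo17 went from 53.7% to 26.1% as the median difference moved from 0.02 to -0.14. On the deposited scale, which differs by 1 factor per array, the lowest ratio of the members was 1.33. In 32 members the inbreds were over 25% apart, in 53 the hybrids were under 1.5-fold and in 18 the hybrid arrays overlapped.

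Other scalings changed less. Scaling to a common median gave 141 probe sets, 120 of them members, and quantile normalization gave 138, 124 of them members. The rule was met under all 4 treatments by 48 members, 27 higher in B73xMo17 and 21 higher in Mo17xB73, and these include Zm.17172.1.A1_at, Zm.2196.1.A1_at and Zm.7848.1.A1_at. Zm.19144.1.A1_at, with the largest ratio of all, was not among them.

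**Figure D5:**
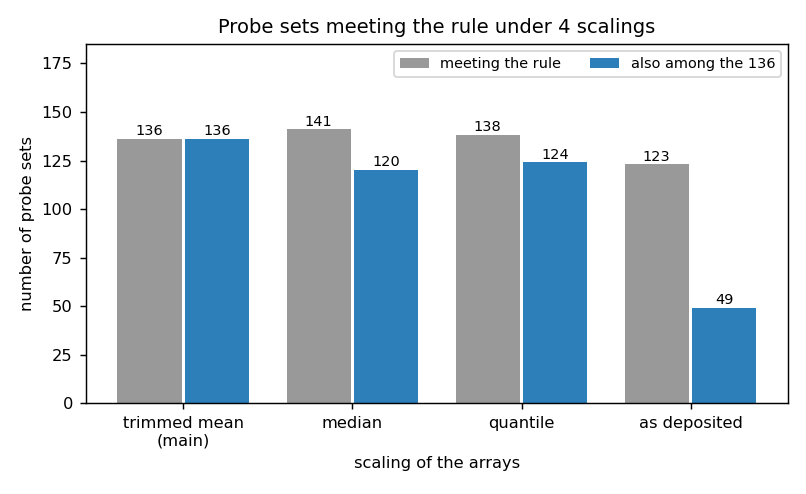
Number of unannotated probe sets meeting the rule under each of 4 scalings (grey bars) and how many of them are among the 136 members (blue bars). The deposited signals give 123 probe sets and share 49 with the members, while the other scalings share 120 or more.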

How the data were processed

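The starting values were the deposited intensity signals of 12 arrays, linear and 1 per probe set. MAS5 was the software the authors used, according to the submitters' processing notes; its version, target and detection calls were not given in the sources used here. Each array was multiplied to a common trimmed mean of 368 (2% left out at each end) because the deposited trimmed means were unequal, from 304 to 458. Fits used log2(signal + 10.6), where 10.6 is the 20th percentile of all scaled signals. Of 17621 probe sets that are not controls (113 controls were left out), the dimmest 33.3% by mean were dropped, which left 11747. Contrasts were fitted over all 4 genotypes with limma 3.58.1 in R 4.3.3 (lmFit, eBayes with trend, 8 residual degrees of freedom, 14.1 with the prior), two-sided, with Benjamini-Hochberg adjustment over all probe sets tested and a threshold of 0.05. The fits were checked on simulated data. The log2 scale with an added constant understates the change of dim probe sets. Members were read from linear scaled means.

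The platform's annotation supplied gene names: of all probe sets, 1452 were tied to 1 gene, 1 to several and 16281 to none. The members, marker lists and limits were chosen with earlier results of these data known. Named members were the 10 largest ratios per direction, up to 4 of smallest p per called contrast, those nearest the limits, those sharing a cluster, the brightest, and up to 6 annotated probe sets of the same pattern. A few others were named after their values were seen.

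The labels give a replicate number to each crossing date, so the numbers pair the samples. Deviations of same-numbered arrays of different genotypes correlated between 0.05 and 0.41 (18 pairs, 13 over 0.1), and those of other numbers between -0.31 and 0.15 (36 pairs). Deviations from a genotype's mean cancel over its arrays, so positive values in same-numbered pairs force lower ones in the others. The range for other numbers is thus not a separate comparison. Alternatives covered the scaling, limits of the rule, added constant, dim filter, eBayes trend, date block, groups in the fit, and leaving out each array. No sequences of the probe sets were used here.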

Additional observations from a re-analysis of the deposited data

How the results depend on the processing

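Here, higher or lower in both hybrids means called in the contrast of both hybrids together with both inbreds, not in each hybrid. With the deposited signals 49 probe sets met the rule with B73xMo17 higher and 74 with Mo17xB73 higher. Of these, 28 and 21 were among the 136. The deposited signals gave 0 members lower in both hybrids. They called 1398 probe sets between the hybrids in place of 2356, and 73 members in place of 123. The common median gave 0 members higher and 4 lower in both hybrids, 0 members called between inbreds, 908 probe sets and 7 members called for crossing date, and it moved the share of calls higher in both hybrids from 95.6% to 82.0%, where deposited signals moved that of calls higher in B73 from 48.9% to 31.4%. Quantile normalization gave 2 members lower in both hybrids and 4 called between inbreds. An inbred limit of 1.1-fold left 46 members (24 and 22), and a reciprocal limit of 2-fold left 21 (10 and 11). The rule under all 4 scalings, chosen after seeing the data, left 48 (27 and 21). For crossing date, a constant of 50 called 3 members, no dim filter called 111 probe sets and 0 members, a stricter dim filter called 2 members, and eBayes without trend called 61 probe sets and 0 members. Without trend 0 members were lower in both hybrids and 1 was called between inbreds, a count that was 4 with the stricter dim filter, 8 with only the inbreds in the fit and 10 with the replicate block. The replicate block changed no other call count of the members by over 1.5 times. Leaving out each array in turn gave 114 to 187 probe sets meeting the rule, 70 to 123 higher in B73xMo17 and 44 to 83 in Mo17xB73 (83 without B73xMo17 replicate 1, which moved it by over 1.5 times). It gave 376 to 579 probe sets called for both hybrids, with 0 to 4 members higher and 0 to 1 lower, 1527 to 2595 between hybrids (1527 without Mo17xB73 replicate 3), with 88 to 128 members, 4766 to 5752 between inbreds, with 0 to 10 members, and 53 to 183 for crossing date, with 0 to 2 members. Every one of the 12 omissions lowered the count for crossing date from 282 by over 1.5 times. For the rule, leaving out a hybrid array gave 158 to 187 probe sets, and leaving out an inbred array gave 114 to 143. With a hybrid array left out, the condition that the hybrids do not overlap has fewer arrays to meet. The cause of the changes between settings was not tested. For named members, 15 of the recomputed reciprocal differences moved by more than the spread between replicates and 506 did not; of those between both hybrids and both inbreds, 16 lost the call and 47 kept it. Inbred and date values of single members were not recomputed.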
